A study of Mus musculus with 2 samples.

Results

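The nuclei described here had at least 1 Anxa1 transcript and no Sox6 transcript among their counts, and they numbered 150 of the 12065 midbrain nuclei kept. They were chosen by measured values, the UMI counts of Anxa1 and Sox6, in nuclei with at least 500 detected features; a UMI (unique molecular identifier) marks 1 captured transcript. The male library held 79 of them among 6556 kept nuclei (1.21%, 0.955 to 1.5%) and the female library 71 among 5509 (1.29%, 1.01 to 1.62%). They were set beside 450 nuclei with neither gene, 3 for each chosen nucleus of the same library with the nearest UMI total, and beside the 366 nuclei with both Anxa1 and Sox6. All intervals of shares are exact Clopper-Pearson 95% intervals and cover counting error only.

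The nuclei came from the ventral midbrain of adult Dat-IRES-Cre, CAG-Sun1/sfGFP mice and had been sorted as GFP+ singlets. Cre made from the dopamine transporter locus permanently switches on the GFP tag of the nuclear envelope in this cross, so a nucleus can carry the tag whether or not its cell still makes the transporter. Nuclei of 2 males formed one pool and library and nuclei of 3 females the other, so that sex and pool cannot be told apart and n is 2 libraries throughout. The deposited matrices summed to 21631906 UMIs over 6594 male nuclei and to 19870131 over 5557 female ones. In all, 6 cell barcodes occurred in both libraries, none of them in the 150 nuclei.

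Dopamine neurons of the ventral midbrain are commonly divided by a few genes. Sox6, a transcription factor gene, marks mainly neurons of the substantia nigra, whereas Otx2 and Calb1, the gene of calbindin, are used for neurons of the ventral tegmental area and the dorsal tier. Aldh1a1 encodes a retinaldehyde dehydrogenase that makes retinoic acid and also clears the aldehyde formed from dopamine, and it marks ventral neurons of both areas. Anxa1 encodes annexin A1, a protein that binds phospholipid membranes in the presence of calcium and is best known for limiting inflammation.

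On chromosome 19 of mm10, GENCODE M21 places Anxa1 (ENSMUSG00000024659) between 20373428 and 20390944, read from the minus strand. Aldh1a1 (ENSMUSG00000053279) follows between 20492715 and 20643465, read from the plus strand, with 101770 bases between the genes. The 250 bases before the RefSeq start of Anxa1 (GRCm38.p6, minus strand, chr19:20390672-20390921) are printed because the transcripts of this gene chose the nuclei. This stretch lies inside the GENCODE span of Anxa1, since GENCODE and RefSeq place the start differently. The capitals mark the letters TATAAA, which begin 32 bases before the RefSeq start.

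Anxa1: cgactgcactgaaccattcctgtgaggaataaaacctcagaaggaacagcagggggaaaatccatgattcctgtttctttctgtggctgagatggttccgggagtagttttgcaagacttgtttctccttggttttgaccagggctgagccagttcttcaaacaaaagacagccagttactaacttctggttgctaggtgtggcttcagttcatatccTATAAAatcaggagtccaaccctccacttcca

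TATAAA, searched on both strands, occurred in 12.4% of the 32851 promoter stretches of this length. TAATCC, letters bound by Otx-type homeobox factors, occurred in 6.25% of them, and ACAAT, the core letters of Sox-type sites, in 27.7%, both strands searched. Neither was found in the stretch of Anxa1. These matches describe letters and not binding.

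The choice rested on few transcripts. In the male library 60 of the 79 nuclei had exactly 1 Anxa1 UMI, 13 had 2 and 6 had 3 or more. In the female library 56 of the 71 had 1, 12 had 2 and 3 had 3 or more. Just outside the rule stood the Anxa1 nuclei with a single Sox6 UMI, 49 male and 46 female. Summed over the chosen nuclei, Anxa1 stood at 374 CPM (the UMIs of a gene scaled to a common total per library sum) in male and 410 CPM in female nuclei. In the nuclei with both genes it stood at 289 and 281 CPM, a description only, since 1 UMI weighs more in a shallow nucleus and these nuclei were deeper. Their median was 4056 and 4417 UMIs, against 3152 and 2809 in the chosen nuclei and 3152 and 2810 in the matched ones.

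Whether an Anxa1 nucleus counted as free of Sox6 moved with its depth. Among the male Anxa1 nuclei with under 2000 UMIs, 17 of 28 had no Sox6 UMI (60.7%, 40.6 to 78.5%). The share was 33.6% between 2000 and 4000 UMIs and 23.3% between 4000 and 8000, and above that 3 of 26 nuclei were left (11.5%, 2.45 to 30.2%). In the female library the shares were 45%, 41.0% and 14.1% in the same order, and 1 of 31 nuclei in the deepest bin (3.23%, 0.0816 to 16.7%). Depth also differed between kinds of nuclei, with medians of 3354 and 3723 UMIs in the Sox6 nuclei without Anxa1 and of 2268 and 2398 UMIs in all nuclei with neither gene. How many of the 150 nuclei held Sox6 transcripts that were not captured cannot be told from these counts.

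**Figure D1:**
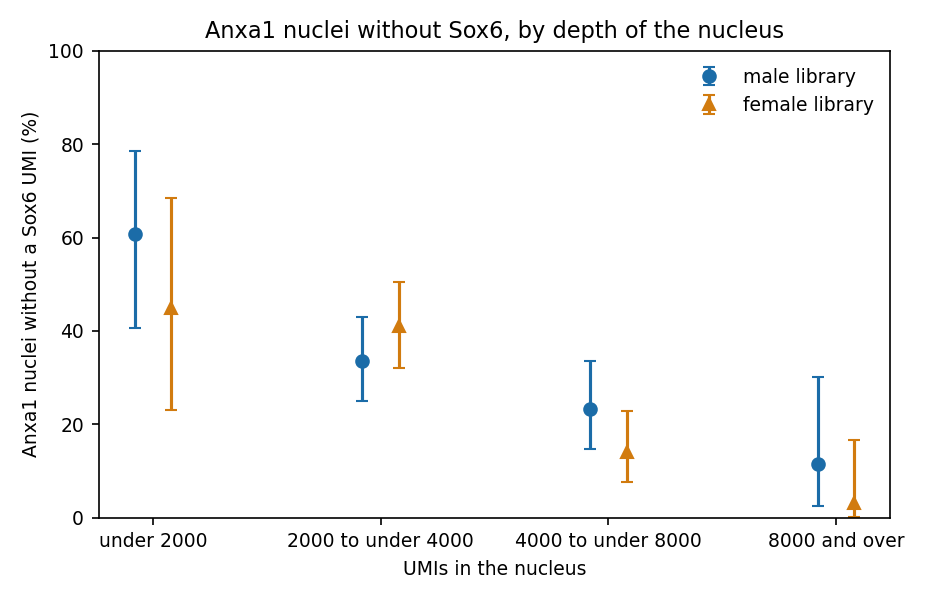
Percent of Anxa1 nuclei without a Sox6 UMI (y) in 4 bins of UMIs per nucleus (x), with exact 95% intervals, for the male (circles) and the female library (triangles). In both libraries the share in the deepest bin, 11.5% and 3.23%, was lower than in any other bin.

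Anxa1 was also caught in some nuclei where it would not be looked for. Of the nuclei without a UMI of Th, Slc6a3 or Ddc, which encode tyrosine hydroxylase, the dopamine transporter and the dopamine-forming decarboxylase, 4 of 350 male (1.14%, 0.312 to 2.90%) and 2 of 200 female nuclei (1.00%, 0.121 to 3.57%) had an Anxa1 UMI, at median depths of 1663 and 1441 UMIs. Among nuclei without Sox6 but with Aldh1a1, 54 of 689 male (7.84%, 5.94 to 10.1%) and 47 of 590 female nuclei (7.97%, 5.91 to 10.5%) had one, at median depths of 2603 and 2772.5. Among nuclei with neither Sox6 nor Aldh1a1 the shares were 25 of 2757 (0.907%, 0.588 to 1.34%) and 24 of 2101 (1.14%, 0.733 to 1.69%), at median depths of 2225 and 2333. The 25 male and 24 female chosen nuclei without Aldh1a1 came from a population whose share with Anxa1 had an interval overlapping that of nuclei lacking the dopaminergic transcripts in both libraries. This overlap decides nothing, since the latter share rests on 4 and 2 nuclei with Anxa1 at lower depth. The populations can also share nuclei. Whether the Anxa1 UMIs of the chosen nuclei without Aldh1a1 came from free RNA or from expression was not tested. In the male library the 21 of them without Calb1 held 30 Anxa1 UMIs and the 4 with Calb1 held 9. In the female library the 21 without Calb1 held 25 and the 3 with Calb1 held 3. A comparison restricted to the nuclei with Aldh1a1 is given further on. Thinned to 1000 UMIs, the shares were 0.833% and 1.09% without the dopaminergic transcripts and 1.42% and 1.72% with at least 1 of them. They were 2.80% and 3.38% with Aldh1a1 but not Sox6, and 0.468% and 0.496% with neither Sox6 nor Aldh1a1.

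The label of these nuclei names Anxa1, Aldh1a1 and Otx2 as markers, of which Anxa1 is the gene of the rule. An Aldh1a1 UMI was found in 54 of the 79 male nuclei (68.4%, 56.9 to 78.4%) and in 47 of the 71 female nuclei (66.2%, 54.0 to 77.0%). In the matched nuclei the shares were 24.1% (18.8 to 30.0%) and 20.2% (15 to 26.2%), so the intervals did not overlap in either library. After thinning to 1000 UMIs per nucleus the expected shares were 32.5% and 38.4%, against 11.6% and 8.71% in matched nuclei and 35.8% and 36.2% in nuclei with both Anxa1 and Sox6. In nuclei without Th, Slc6a3 and Ddc they were 6.83% and 10.2%. Thinning left out at most 3 nuclei of a group in these comparisons, except for the nuclei lacking dopaminergic transcripts, where 41 male and 60 female nuclei were too shallow.

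Otx2, a homeobox transcription factor gene of ventral tegmental dopamine neurons, was seen in only 2 male nuclei (2.53%, 0.308 to 8.85%) and 1 female nucleus (1.41%, 0.0357 to 7.60%). In the matched nuclei it was seen in 2 of 237 (0.844%, 0.102 to 3.01%) and 4 of 213 (1.88%, 0.514 to 4.74%). Among the nuclei with both Anxa1 and Sox6 there were 0 of 177 male nuclei, which by the limit of 3 counts for a count of 0 allows a share of up to 1.69% (exact upper bound 2.06%), and 3 of 189 female nuclei (1.59%, 0.329 to 4.57%). In nuclei without Th, Slc6a3 and Ddc the shares were 0.571% and 1.00%. All these intervals overlapped, which with so few Otx2 nuclei does not decide whether the share with Otx2 differed. Among the 30 nearest neighbours of a nucleus in its library, found as described further on, Otx2 was seen in a mean of 2.70% and 3.43% for the chosen nuclei. The mean was 1.18% and 2.11% for matched nuclei, 0.546% and 0.899% for nuclei with both genes and 0.897% and 1.39% for all kept nuclei, which is a description without a test. No share was tested, since an exact sign-flip test over 2 libraries cannot give a p below 0.5.

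Aldh1a1 and Calb1 divided the 150 nuclei unevenly. Aldh1a1 without Calb1 was found in 46 male (58.2%) and 46 female nuclei (64.8%), and neither gene in 21 and 21 (26.6% and 29.6%). Both genes were found in 8 male nuclei and 1 female nucleus, and Calb1 alone in 4 and 3. Calb1 was thus seen in 15.2% of the male nuclei (8.10 to 25%) and 5.63% of the female nuclei (1.56 to 13.8%), against 25.7% (20.3 to 31.8%) and 24.9% (19.2 to 31.2%) in matched nuclei. The intervals overlapped in the male library and not in the female one. A dopaminergic transcript, of Th, Slc6a3 or Ddc, was found in 75 male (94.9%) and 70 female nuclei (98.6%).

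Transcripts of other cells were scarce. No UMI of the 5 astrocyte, 3 serotonergic, 3 ependymal or 4 pericyte and fibroblast markers was found in the 150 nuclei, and of the 4 oligodendrocyte precursor markers there was 1 UMI of Pdgfra. The 6 oligodendrocyte markers summed to 100.8 CPM in male nuclei, with Mobp at 0. They summed to 93.6 CPM in female nuclei, led by Mbp with 9 UMIs and with Mobp and Mag at 0. The sums were 81.7 and 59.4 CPM in matched nuclei and 98.8 and 44.2 CPM in nuclei with both genes. At least 2 of these markers were seen in 3 male and 3 female nuclei of the 150. The 4 GABAergic markers summed to 61.2 and 57.9 CPM, against 54.1 and 51.9 CPM in matched nuclei and 47.7 and 62.8 CPM in nuclei with both genes. They were led by Gad2 in the male library (8 UMIs), while Slc32a1, the vesicular GABA transporter gene, was at 0. Microglia (5 markers), endothelial cells (4) and glutamatergic neurons (3) gave 2, 1 and 4 UMIs in the male library and 2, 4 and 1 in the female library, with at most 2 UMIs of any one gene in a library. P2ry12 and Aif1 had 1 UMI each in either library, Tek 1 and 2, Pecam1 0 and 2, Slc17a6 2 and 1, and Slc17a7 2 and 0. Cx3cr1 and C1qa of microglia and Cldn5 and Flt1 of endothelium were at 0.

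The first comparison asked what else set the Anxa1 nuclei without Sox6 apart from nuclei of equal depth with neither gene. UMIs were summed per group and library, and the 4 sums of each gene went into a quasi-likelihood model of edgeR that held the library as a block. This left 1 residual degree of freedom, with the spread moderated across genes, and a gene was called at a Benjamini-Hochberg adjusted p below 0.05. Of 8925 genes tested, 140 differed (1.57%), 58 higher (0.650%) and 82 lower (0.919%) in the Anxa1 nuclei, and all 140 had the same sign in each library. Aldh1a1, Lmo3, Zfp804b, Lrrtm4 and Hs6st3 were among the higher genes, and Chrm3, Ankfn1, Kcnip4 and Lmx1a among the lower ones.

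Aldh1a1 stood at 407 CPM in male and 495 CPM in female Anxa1 nuclei, against 154 and 96.5 CPM in matched nuclei. Its log2 fold change was 1.79 (SE 0.17, adjusted p = 7.4e-11 by edgeR). Both Anxa1 sums lay above both matched sums. Its relative Aldh1a7, 49487 bases further along chromosome 19, was at 18.0 and 26.7 CPM against 3.60 and 4.45 CPM, which missed the threshold (log2 fold change 2.39, SE 0.69, adjusted p = 0.0695 by edgeR). The sequences of these genes are alike, so some reads may have been counted for the wrong one.

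Lmo3, which encodes a LIM-only cofactor of transcription, was at 457 and 495 CPM against 145 and 138 CPM in matched nuclei. It was seen in 48 of the 79 male and 43 of the 71 female nuclei, and its log2 fold change was 1.72 (SE 0.15, adjusted p = 1.2e-11 by edgeR). Zfp804b, a zinc finger gene, was at 576 and 664 CPM against 221 and 209 CPM (log2 fold change 1.5, SE 0.13). The library sums of both genes did not overlap between the groups.

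Pcdh17, a protocadherin gene, stood at 144 and 200.5 CPM against 55.3 and 60.8 CPM, and its log2 fold change was 1.53 (SE 0.23). Cdh6, the gene of cadherin 6, stood at 75.6 and 169 CPM against 18.0 and 26.7 CPM (log2 fold change 2.40, SE 0.31, adjusted p = 4.7e-07 by edgeR). Its male and female sums in the Anxa1 nuclei differed more from each other than those of Pcdh17 did, yet both lay above the matched sums. Lrrtm4, a synaptic adhesion gene, was at 2645 and 2709 CPM against 1062 and 1187 CPM (log2 fold change 1.24, SE 0.08, adjusted p = 1.7e-15 by edgeR). The log2 fold change was 0.72 (SE 0.07) for Tenm2, a teneurin gene, 0.77 (SE 0.08) for Ntm, the gene of neurotrimin, and 0.97 (SE 0.11) for Etl4. Hs6st3, an enzyme gene of heparan sulfate sulfation, was at 1062 and 815 CPM against 405 and 407 CPM, with a log2 fold change of 1.21 (SE 0.11). Lrrtm4, Tenm2, Ntm, Etl4 and Hs6st3 were picked after their values had been seen.

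Among the less abundant genes, Piezo2, the gene of a mechanically gated ion channel, was at 57.6 and 66.8 CPM against 10.8 and 7.42 CPM (log2 fold change 2.69, SE 0.45, adjusted p = 7.1e-05 by edgeR). It rested on 16 and 15 UMIs in 11 and 12 of the Anxa1 nuclei. Eya1, a transcriptional coactivator gene, rose by 2.04 (SE 0.38) on the log2 scale. Plch1, Arhgap31 and Colec12, which encode a phospholipase C, a regulator of small GTPases and a scavenger receptor, had log2 fold changes of 2.21, 1.99 and 1.91 with adjusted p-values of 0.0166, 0.0253 and 0.0463 from edgeR. These lower genes rested on 5 to 13 UMIs per library. Plch1 and Arhgap31 were each called in 5 of the 7 alternative fits that tested them, and Colec12 in 3 of 6.

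**Figure D2:**
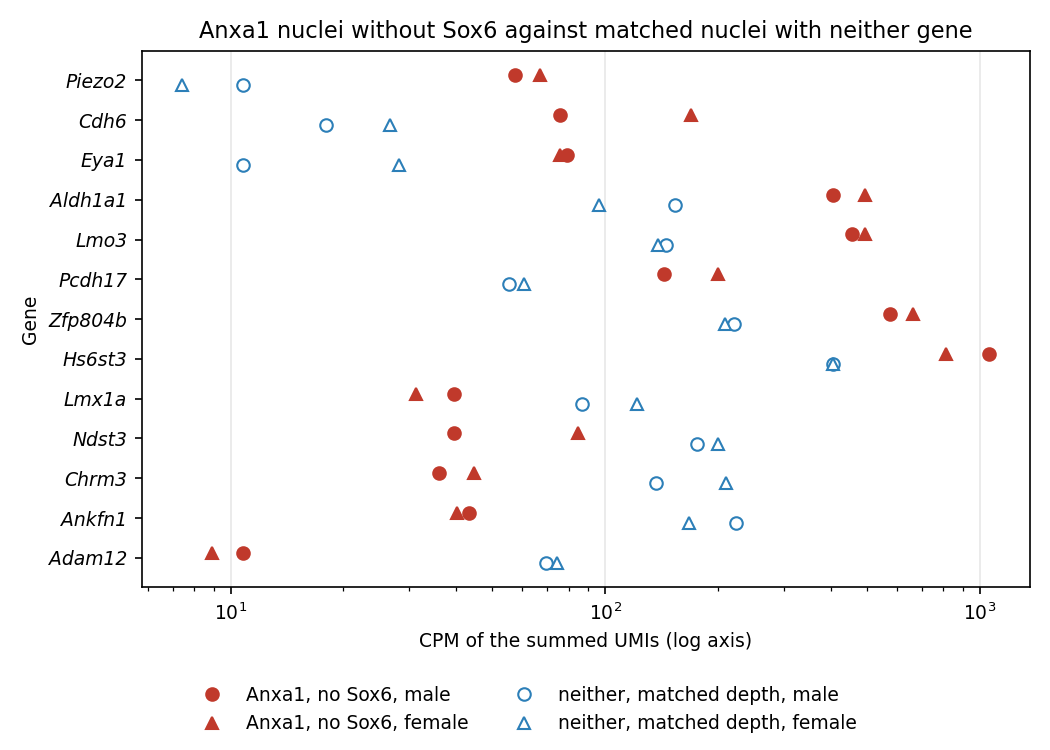
CPM of summed UMIs (x, log axis) of 13 called genes (y) in Anxa1 nuclei without Sox6 (filled) and in depth-matched nuclei with neither gene (open), with a circle for the male and a triangle for the female library. For each gene plotted, both filled symbols lie on the same side of both open ones, from Piezo2 with log2 2.69 higher to Adam12 with log2 -2.84.

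Among the genes lower in the Anxa1 nuclei, Chrm3, the gene of the muscarinic M3 receptor, stood at 36.0 and 44.6 CPM against 137 and 211 CPM (log2 fold change -2.10, SE 0.32, adjusted p = 1.4e-05 by edgeR). Ankfn1 stood at 43.2 and 40.1 CPM against 223 and 168 CPM (log2 fold change -2.25, SE 0.27). Ndst3, which encodes an enzyme of heparan sulfate modification, was at 39.6 and 84.7 CPM against 175 and 200.3 CPM (log2 fold change -1.65, SE 0.25). All 3 genes had library sums that did not overlap between the groups.

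Adam12, a metalloprotease gene, had 3 and 2 UMIs in the Anxa1 nuclei against 58 and 50 (log2 fold change -2.84, SE 0.47). Ptprt, a receptor tyrosine phosphatase gene, and Fras1, the gene of an extracellular matrix protein, had log2 fold changes of -2.37 (SE 0.41) and -2.12 (SE 0.40). They kept 3 to 6 UMIs per library. R3hcc1l had no UMI in the 150 nuclei against 18 and 13 UMIs in the matched ones, which puts it at least 3.45-fold lower when 3 UMIs over both libraries are taken as the limit. Col24a1, a collagen gene, had 2 UMIs against 44, 7.34 times lower with an exact counting interval of 1.91 to 62.5. Syn2, a synapsin gene, and Zan had log2 fold changes of -1.87 and -1.83, each with 3 UMIs in either library (adjusted p = 0.0388 and 0.0473 by edgeR). These genes were thus near the lower end of what the summed counts could resolve.

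Of the 12 pacemaking channel genes tested of 13 listed, none was higher and 2 were lower, with a median log2 fold change over the list of -0.05 against -0.00065 over all genes. Such channels set the slow regular firing of dopamine neurons. Kcnip4, which encodes an auxiliary subunit of Kv4 potassium channels, was at 4812 and 4643 CPM against 7198 and 7861 CPM (log2 fold change -0.68, SE 0.06, adjusted p = 5.9e-11 by edgeR). Kcnd2, which encodes the Kv4.2 channel itself, was at 608 and 441 CPM against 721 and 797 CPM (log2 fold change -0.52, SE 0.12). Kcnd3, the gene of Kv4.3, had a log2 fold change of 0.12 (SE 0.08) that did not pass.

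Of the genes of dopamine synthesis and handling, none was called of 9 tested (10 listed), and their median log2 fold change was -0.0054. Th was at 331 and 517 CPM against 359 and 476 CPM in matched nuclei. Slc6a3 was at 461 and 691 CPM against 437 and 571 CPM. In both genes the libraries differed from each other more than the groups did, and neither difference passed the test. Of the 9 tested of 10 dopaminergic transcription factor genes, Lmx1a alone was called, lower. It was at 39.6 and 31.2 CPM against 86.5 and 122 CPM (log2 fold change -1.52, SE 0.32, adjusted p = 0.0024 by edgeR). The call rested on 11 and 7 UMIs in the Anxa1 nuclei and held in 5 of the 9 alternative fits that tested the gene. Lmx1a takes part in the early specification of midbrain dopamine neurons.

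Of the 15 axon guidance genes tested of 16, Epha5, an ephrin receptor gene, was higher (1245 and 1479 CPM against 892 and 1042 CPM, log2 fold change 0.48, SE 0.08). Unc5d, a netrin receptor gene, and Sema6d, a semaphorin gene, were lower (log2 fold changes -1.47 and -0.30). Alternative fits called Epha5 in 7 of 10, Unc5d in 6 of 9 and Sema6d in 4 of 10. Of the retinoid pathway, Aldh1a1 was the single gene called of 8 tested of 15. Of the 11 genes listed for the substantia nigra, all tested, Lmo3 alone was called, and the list's median was -0.09. Of the ventral tegmental list only Calb1, Calb2 and Lpl were tested of 12, and none passed. Calb1 was at 61.2 and 22.3 CPM against 98.5 and 96.5 CPM, a log2 fold change of -1.17 (SE 0.33) whose adjusted p was 0.0526 by edgeR. Of the annexins and annexin A1 partners only Anxa6 and Anxa7 were tested of 12, neither called, and the formyl peptide receptor genes Fpr1, Fpr2 and Fpr3 had no UMI in the 150 nuclei. No neuropeptide gene passed the filter on low counts.

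The size of this comparison depended on the fit. Without the block 42 genes were called and with DESeq2 61, whereas Aldh1a1, Lmo3, Zfp804b, Lrrtm4, Hs6st3, Etl4, Tenm2, Ntm and Kcnip4 were called with the same sign in each of the 10 alternative fits.

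The second comparison, with nuclei that had Anxa1 and Sox6 both, asked what differed between Anxa1 nuclei once Anxa1 was shared. It used the same Anxa1 nuclei without Sox6 and the same fit, so its values and those above are not independent. Of 8925 genes, 249 differed (2.79%), 123 higher (1.38%) and 126 lower (1.41%) in the nuclei without Sox6, and all had the same sign in each library. With scaling by library total alone, which moved the median over all genes to 0.06, the split was 147 higher and 100 lower. Aldh1a1 did not pass, at 407 and 495 CPM against 422 and 430 CPM (log2 fold change 0.0045, SE 0.13, adjusted p = 0.996 by edgeR). The library sums of the groups overlapped in this gene.

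Otx2os1, a long noncoding RNA gene on the opposite strand of Otx2 (chromosome 14, 48668708 to 48870683, plus strand, mm10), was at 79.2 CPM in male and 93.6 CPM in female nuclei without Sox6, against 17.4 and 17.7 CPM in nuclei with both genes. Its log2 fold change was 2.24 (SE 0.33, adjusted p = 6.9e-06 by edgeR), and it was seen in 14 male and 14 female nuclei. The gene shares 5112 bases with Otx2, and since the strand setting of the counting is not given in the sources used here, reads from the shared bases cannot be assigned with certainty. Otx2 itself had 2 and 1 UMIs in the nuclei without Sox6.

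Col23a1, a transmembrane collagen gene, was at 90.0 and 84.7 CPM against 14.0 and 14.7 CPM (log2 fold change 2.53, SE 0.34, adjusted p = 1.0e-06 by edgeR). Chrm2, the gene of the muscarinic M2 receptor, was at 64.8 and 75.7 CPM against 14.0 and 3.93 CPM (log2 fold change 2.93, SE 0.44). Cald1, the gene of the actin-binding protein caldesmon, was at 61.2 and 66.8 CPM against 15.1 and 10.8 CPM (log2 fold change 2.20, SE 0.39). In these 3 genes both sums without Sox6 lay above both sums with it. Piezo2 and Eya1 had log2 fold changes of 2.45 (SE 0.42) and 2.28 (SE 0.38).

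Among abundant genes, Foxp2, a forkhead transcription factor gene, was at 630 and 606 CPM against 248 and 285 CPM (log2 fold change 1.16, SE 0.12, adjusted p = 1.8e-09 by edgeR). Etl4 was at 1130 and 967 CPM against 452 and 344 CPM (log2 fold change 1.35, SE 0.11). Tacr3, the gene of the neurokinin 3 receptor, was at 194 and 143 CPM against 45.3 and 83.4 CPM (log2 fold change 1.30, SE 0.26). These 3 genes were picked after their values had been seen. Of rarer genes, Pmfbp1 had 4 and 7 UMIs against none in the nuclei with both genes, at least 13.7-fold higher when 3 UMIs over both libraries are taken as the limit. Egfr, the gene of the epidermal growth factor receptor, had 10 UMIs against 3, 12.5 times higher with an exact counting interval of 3.21 to 70.5. Col14a1, a collagen gene, and Plpp3, a lipid phosphatase gene, had log2 fold changes of 2.71 and 2.64 (adjusted p = 0.0043 and 0.0396 by edgeR) on 4 and 12 UMIs and on 8 and 3 UMIs.

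**Figure D3:**
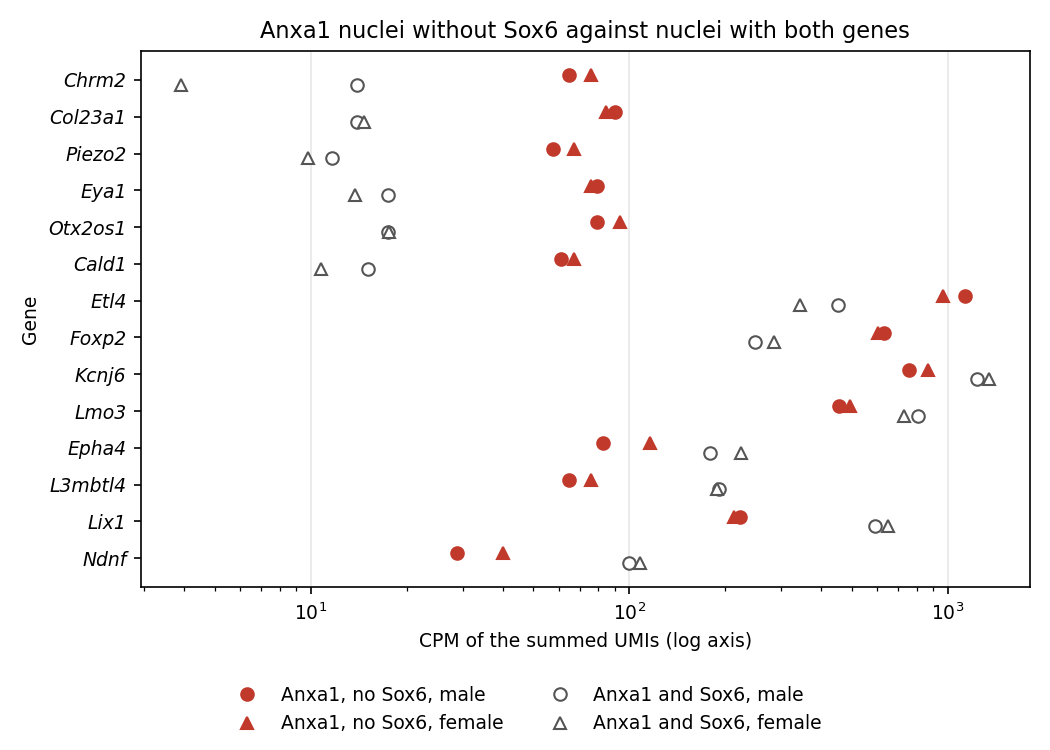
CPM of summed UMIs (x, log axis) of 14 called genes (y) in Anxa1 nuclei without Sox6 (filled) and in nuclei with Anxa1 and Sox6 (open), with a circle for the male and a triangle for the female library. The 8 upper genes, among them Otx2os1 at 79.2 and 93.6 CPM, lie to the right of the open symbols, and the 6 lower genes, among them Ndnf at 28.8 and 40.1 CPM, to the left.

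Of the 11 genes listed for the substantia nigra, 5 were lower than in the nuclei with Sox6 and none higher, with a median log2 fold change of -0.76 against 0.0039 over all genes. Lmo3 was at 457 and 495 CPM against 809 and 730 CPM (log2 fold change -0.76, SE 0.11), with library sums between those of the matched nuclei and of the nuclei with both genes. Ndnf, which encodes a secreted neurotrophic factor, was at 28.8 and 40.1 CPM against 100.0 and 108 CPM (log2 fold change -1.65, SE 0.32, adjusted p = 0.0005 by edgeR). Kcns3, Grin2c and Satb1, which encode a potassium channel subunit, an NMDA receptor subunit and a chromatin organizer, had log2 fold changes of -0.98, -1.12 and -0.55. They were called in 5 of 9, 5 of 8 and 5 of 9 alternative fits that tested them, whereas Lmo3 and Ndnf were each called in 8 of 9.

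Lix1 was at 223 and 214 CPM against 591 and 651 CPM (log2 fold change -1.58, SE 0.16, adjusted p = 6.9e-10 by edgeR). L3mbtl4 was at 64.8 and 75.7 CPM against 191 and 188 CPM. In both genes the sums without Sox6 lay below the sums with it. Rarb, the gene of a retinoic acid receptor, was at 28.8 and 8.91 CPM against 58.1 and 49.1 CPM (log2 fold change -1.51, SE 0.41, adjusted p = 0.0283 by edgeR), and was the single called gene of 8 tested in the retinoid pathway. The other named genes were rare in the nuclei without Sox6. Myof, the gene of myoferlin, had 1 UMI there against 56, 15 times lower with an exact counting interval of 2.58 to 602. Gab1, Per3, St3gal4, Mylip and Map9, genes of a signalling adaptor, a clock component, a sialyltransferase, a ubiquitin ligase and a microtubule protein, had log2 fold changes of -2.28, -2.09, -1.99, -1.87 and -1.5, with adjusted p-values from 0.0128 to 0.0499 by edgeR.

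Of the 12 pacemaking channel genes tested, 2 were lower and none higher. Kcnj6, which encodes the GIRK2 channel opened by the dopamine autoreceptor, was at 756 and 864 CPM against 1238 and 1350 CPM (log2 fold change -0.74, SE 0.09, adjusted p = 1.7e-07 by edgeR). Kcnip3 was at 50.4 and 40.1 CPM against 110 and 93.2 CPM and was called in 5 of 9 alternative fits, Kcnj6 in 9 of 9. Kcnip4 did not pass (log2 fold change -0.14, SE 0.06). Of the 15 axon guidance genes, 5 were lower, Epha4, Ntng1, Sema6d, Robo2 and Unc5c, with log2 fold changes from -1.09 to -0.41, and none was higher. In that order they were called in 7, 6, 7, 7 and 5 of 9 alternative fits. No dopaminergic transcription factor gene was called of 9 tested, and in the synthesis and handling list Kcnj6 was the single call of 9. Th was at 331 and 517 CPM against 258 and 385 CPM and did not pass (log2 fold change 0.33, SE 0.13).

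Gad2, the gene of a GABA-synthesizing enzyme, was at 28.8 and 26.7 CPM against 5.81 and 5.89 CPM in nuclei with both genes (log2 fold change 2.11, SE 0.60, adjusted p = 0.0380 by edgeR). It rested on 8 and 6 UMIs in 3 male and 3 female nuclei, and the call was lost without the block (adjusted p = 0.178 by edgeR). Matched nuclei with neither gene had 28.8 and 14.8 CPM. Gad1 had 3.60 and 0 CPM. Neither of the 2 tested oligodendrocyte markers was called, and without the nuclei with 2 or more oligodendrocyte markers 261 genes were called here and 146 in the first comparison. Matching the nuclei with both genes in depth gave 269 calls, and a fit without the block gave 76 and DESeq2 102. Of the 20 genes named by the rule in this comparison, 3 were called under every setting. The call was lost in 28 of the 139 alternative fits of these genes.

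Set side by side, the genes fell into different orders across the groups. The genes of this paragraph were picked after their values had been seen, and since the Anxa1 nuclei without Sox6 enter both comparisons, the values are described and not counted as agreement. Otx2os1, higher than in nuclei with Sox6, was at 66.1 and 84.6 CPM in the matched nuclei, where its difference did not pass (log2 fold change 0.19, SE 0.26). The same held for Cald1 (log2 fold change 0.30, SE 0.31), Foxp2 (0.24, SE 0.11) and Tacr3 (0.09, SE 0.23), all without a call against matched nuclei. Chrm2 just missed the threshold there, at 64.8 and 75.7 CPM against 26.4 and 31.2 CPM (log2 fold change 1.27, SE 0.36, adjusted p = 0.0584 by edgeR).

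Hs6st3, higher than in matched nuclei, was lower than in nuclei with both genes, at 1062 and 815 CPM against 1916 and 1929 CPM (log2 fold change -1.09, SE 0.09, adjusted p = 2.6e-12 by edgeR). Zfp804b and Tenm2 likewise stood between the groups, with log2 fold changes of -0.42 (SE 0.11) and -0.30 (SE 0.06) against nuclei with both genes. Lrrtm4 and Pcdh17 did not pass in that comparison (log2 fold changes 0.08, SE 0.07, and 0.20, SE 0.19). Cdh6 was above both groups, at 75.6 and 169 CPM against 37.2 and 42.2 CPM in nuclei with both genes (log2 fold change 1.55, SE 0.27, adjusted p = 0.0001 by edgeR), as were Piezo2 and Eya1. Lix1 was below both, at 465 and 319 CPM in the matched nuclei (log2 fold change -0.87, SE 0.17, adjusted p = 0.0009 by edgeR).

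The third comparison held Aldh1a1 fixed. It set the 54 male and 47 female Anxa1 nuclei with Aldh1a1 and without Sox6 against 162 and 141 nuclei of matched depth with Aldh1a1 and without Sox6 and Anxa1. Of 5481 genes tested, 33 differed (0.602%), 13 higher and 20 lower, each with the same sign in either library. This count was lost under several settings: DESeq2 called 1 gene, edgeR with 1 matched nucleus each 2 genes, and edgeR without the block 0 genes, with 192 at an unadjusted p below 0.05. With at least 2 Anxa1 UMIs, or without the filter on low counts, edgeR also called 0 genes, with 60 and 461 at an unadjusted p below 0.05. None of the genes named in this comparison was called in each of the alternative fits that tested it. Lrrtm4 was called in 7 of 10, Kcnip4 in 5 of 10, Kcnd2 and Grik2 in 1 of 10 and Vps36 in 1 of 7.

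Lrrtm4 was at 2577 and 3372 CPM against 1517 and 1559 CPM, and its log2 fold change was 0.93 (SE 0.09, adjusted p = 9.9e-23 by edgeR). Lmo3 was at 445 and 559 CPM against 280 and 242 CPM (log2 fold change 0.91, SE 0.17). Both differences were smaller than those against all matched nuclei, and the sizes were not compared by a test. Pcdh17, Zfp804b, Hs6st3, Etl4 and Ntm were also higher, with log2 fold changes of 1.72, 0.94, 0.87, 0.71 and 0.45. Astn2, the gene of the neuronal migration protein astrotactin 2, was higher by 0.76 (SE 0.14). Vps36, the gene of an endosomal sorting component, and Dnhd1 were higher by 2.61 and 1.24, the former on 8 and 7 UMIs.

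Among the lower genes, Opcml, an adhesion gene related to Ntm, was at 1078 and 578 CPM against 1383 and 1492 CPM (log2 fold change -0.79, SE 0.11, adjusted p = 1.8e-08 by edgeR). Grik2, a kainate receptor gene, had a log2 fold change of -0.77 (SE 0.18), and Pcdh7 and Kirrel3, adhesion genes, had values of -0.85 and -0.91. The Kv4 genes Kcnip4 and Kcnd2 were also lower, with log2 fold changes of -0.43 (SE 0.06) and -0.54 (SE 0.14), the 2 calls among the 12 tested pacemaking genes. Ptprt, Dhx32 and Nrp1, the gene of neuropilin 1, had log2 fold changes of -2.45, -2.32 and -2.17 on 3 and 1, 2 and 2, and 2 and 2 UMIs in the Anxa1 nuclei. Zbtb7c and Tbcd had log2 fold changes of -1.51 and -1.18. None of 8 tested genes of dopamine handling was called, Th and Slc6a3 among them.

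The Anxa1 nuclei without Sox6 were not alike among themselves. For each nucleus the 30 nearest neighbours within its library were found on 30 principal components of 2000 variable genes, from which Anxa1, Sox6, Otx2, Aldh1a1 and Calb1 were left out, and the share of neighbours with a Sox6 UMI was taken. Its median was 40% over the male and 36.7% over the female nuclei, with a range from 0 to 96.7% and from 0 to 100%. Among nuclei with at least 3000 UMIs the medians were 50% and 56.7%. With this minimum they were 36.7% and 30% in matched nuclei and 80% and 90% in all kept nuclei. Without it, matched nuclei with neither gene also ran from 0 to 100% and from 0 to 96.7%. Their medians were 23.3% and 20%, with quartiles from 10 to 53.3% and from 10 to 43.3%. Nuclei with both genes had medians of 90% and 93.3%. The quartiles of the Anxa1 nuclei without Sox6 ran from 16.7 to 76.7% in the male and from 16.7 to 71.7% in the female library. In the male library 34 nuclei had under 30% and 24 nuclei 70% or more Sox6 neighbours, and in the female library 30 and 19. The shares describe positions and were not tested, since the genes behind the neighbours are those of the nuclei themselves.

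**Figure D4:**
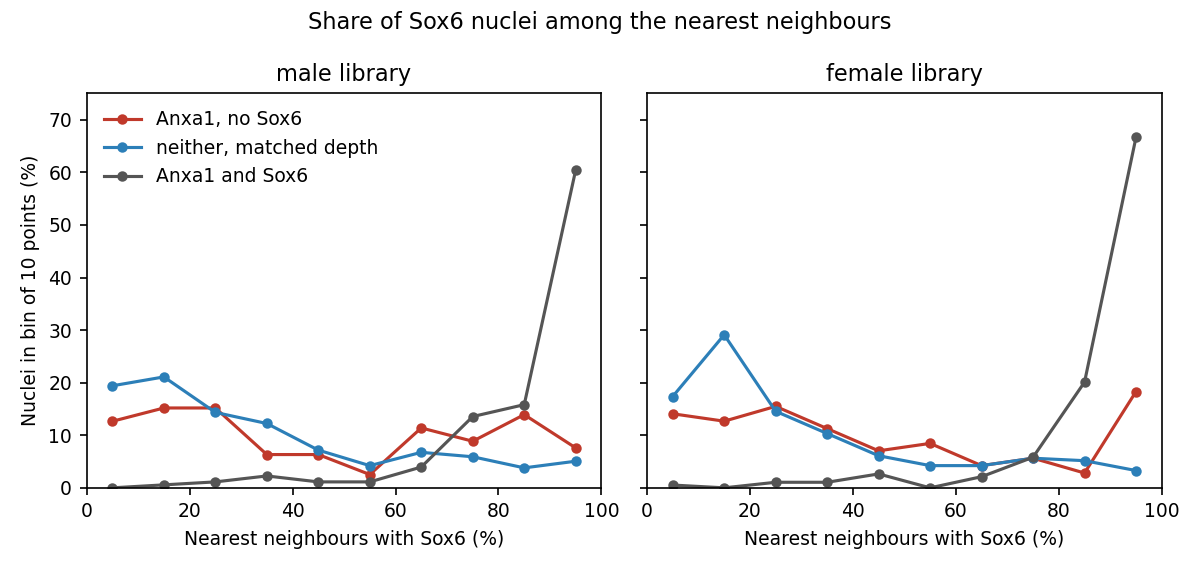
Percent of nuclei (y) by the percent of their 30 nearest neighbours with a Sox6 UMI (x, bins of 10 points), in the male and the female library. Nuclei with Anxa1 and Sox6 gather in the bin from 90 to 100% (60.5% and 66.7% of them), whereas Anxa1 nuclei without Sox6 and the matched nuclei both spread over the whole range.

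When the nuclei of each library were ordered by this share and cut into tertiles of like size, the tertiles differed in gene content. The cut uses measured values, so the levels that follow are a description, without a test, and the genes were picked after their values had been seen. The low tertile held 27 male and 24 female nuclei with at most 23.3% Sox6 neighbours, and the high tertile 26 and 23 with at least 66.7% and 56.7%. Nuclei that tied at an edge, as at 23.3% in both libraries and at 66.7% in the male one, were split by their order in the files. Median depths were 2390 and 2547.5 UMIs in the low tertile, 3663 and 3014 in the middle and 3045 and 3592 in the high tertile.

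Anxa1, which chose the nuclei, was at 372 and 485 CPM in the low, 389 and 429 CPM in the middle and 360 and 347 CPM in the high tertile. Aldh1a1 was at 526 and 485 CPM, 398 and 658 CPM, and 318 and 369 CPM. It was thus found along the whole range, in 20 of 27 and 14 of 24 nuclei of the low tertile and in 15 of 26 and 15 of 23 of the high tertile.

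Otx2os1 was at 218 and 156 CPM in the low, 37.9 and 134 CPM in the middle and 10.6 and 21.7 CPM in the high tertile, so that the female low and middle tertiles were close (9 and 10 UMIs). The 3 nuclei with an Otx2 UMI had 3.33% and 23.3% (male) and 20% (female) Sox6 neighbours, the one at 23.3% tied with 2 other male nuclei at the edge of the low tertile. The median share of neighbours with Otx2 was 3.33% and 8.33% in the low tertile and 0 in the others. Col23a1 was at 282 and 260 CPM in the low tertile, from 22 and 15 of its 25 and 19 UMIs. Chrm2 was at 128 and 294 CPM there and had no UMI in the high tertile. Cald1, Piezo2, Cdh6 and Anxa6 also had their highest level in the low tertile in both libraries, Cdh6 at 128 and 363 CPM against 10.6 and 32.6 CPM in the high tertile. Anxa6, a relative of Anxa1, was at 179.6 and 190.4 CPM in the low and at 74.1 and 76.0 CPM in the high tertile.

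Other genes ran the other way. Lix1 was at 89.8 and 138 CPM in the low and 466 and 304 CPM in the high tertile. Hs6st3 ran from 282 and 190 CPM over 797 and 456 CPM to 2001 and 1498 CPM. Lmo3 ran from 154 and 225 CPM to 688 and 727 CPM, and Grin2c from 0 and 1 UMIs to 7 and 10 UMIs. Alk, a receptor tyrosine kinase gene, ran from 38.5 and 69.2 CPM to 243 and 174 CPM.

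The middle tertile was not simply between the others. Etl4 was highest there, at 1670 and 1584 CPM, against 1283 and 1021 CPM in the low and 402 and 434 CPM in the high tertile. Foxp2 was at 797 and 872 CPM there, near the low tertile (962 and 779 CPM) and above the high tertile (169 and 282 CPM). Lrrtm4 was also highest in the middle tertile, at 3235 and 3543 CPM. Calb1 was carried by the low and the middle tertile in the male library (5 and 12 UMIs, against 0) and by the low tertile in the female library (4 UMIs of 5). Of the Gad2 UMIs, 7 of 8 in the male and 3 of 6 in the female library lay in the high tertile. Of the Aldh1a7 UMIs, 5 of 5 and 5 of 6 lay there.

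**Figure D5:**
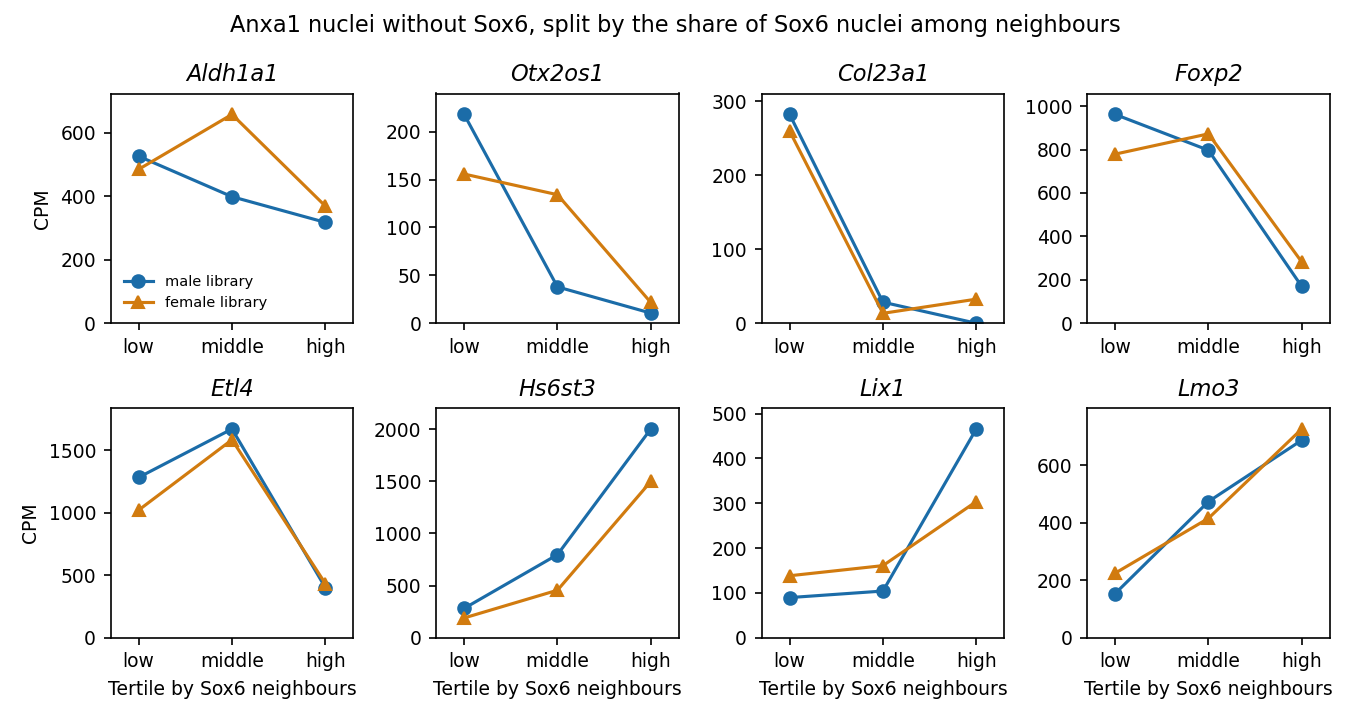
CPM (y, from 0, a separate scale for each gene) of 8 genes in the low, middle and high tertile of the Anxa1 nuclei without Sox6 by the share of Sox6 nuclei among their neighbours (x), with a line for each library. Otx2os1 and Col23a1 are highest in the low tertile, Etl4 in the middle tertile, and Hs6st3, Lix1 and Lmo3 in the high tertile, in both libraries.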

How the data were processed

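The authors aligned reads to mm10 with Cell Ranger 6.0.0 (version from the submitters' processing notes, which also name Seurat 4.0.2), introns included, and deposited raw counts of UMIs, as whole numbers, for each gene in each nucleus; the files still held 38 male and 48 female nuclei under the study's minimum of 500 features. The strand setting is not given in the sources used here. Here that minimum was applied, and no doublets were removed. Counts were summed per group and library and scaled to CPM. EdgeR 4.0.16 (R 4.3.3) tested them with TMM factors, its filter on low counts and the library as a block; DESeq2 1.42.0 was an alternative. The edgeR procedure was tested on simulated counts with the same spread for all genes and no difference between libraries beyond depth. Only abundant genes were changed in them, so the recovery of rare genes was not tested. Expected shares after thinning are hypergeometric. Neighbours used counts per 10000 on a log scale. Promoters are RefSeq's (GRCm38.p6); 32235 of 32285 gene identifiers were found in GENCODE M21.

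The chosen nuclei, the gene lists and the tests were selected with earlier results of these data known. Named were the listed genes and, per comparison and direction, the 10 genes with the largest fold change among those past the threshold, of the same sign in both libraries and at least 20 CPM in the higher group, without predicted genes; others are said to be picked later. Each library is a pool of mice, and with the library as a block p-values rest on how far the group difference varied between the 2 pools, with the spread moderated across genes. A few genes are not reported here.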

Additional observations from a re-analysis of the deposited data

How the results depend on the processing

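The number of genes that differed from matched nuclei, 140, moved to 61 with DESeq2, 42 without the block, 30 with at least 2 Anxa1 UMIs, 64 in nuclei with at least 3000 UMIs and 233 with unmatched nuclei. Against nuclei with both genes, 249 moved to 102, 76, 31 and 118 in the first 4 of these. With Aldh1a1 held fixed, 33 moved to 1, 0, 0 and 14 in the same order, to 14 with at least 1000 features, 2 with 1 matched nucleus each, 21 unmatched and 0 without the filter on low counts; the counts of 0 had 192 (no block), 60 (2 UMIs) and 461 (no filter) genes at an unadjusted p below 0.05 by edgeR. The stricter Anxa1 and depth minimums also left fewer nuclei and fewer genes tested; the cause of the other shifts was not tested. The mean share with Aldh1a1, 35.5% thinned to 1000 UMIs, was 54.3% thinned to 2000, 67.3% unthinned and 29.9% with at least 2 Anxa1 UMIs, and that with Otx2, 0.640%, was 1.54%, 1.97% and 1.23%. The mean of the median share of Sox6 neighbours, 38.3%, was 35.0% with 1000 variable genes and 53.3% in nuclei with at least 3000 UMIs. Taken alone, male first, the libraries had an Aldh1a1 share of 32.5% and 38.4%, an Otx2 share of 0.754% and 0.526%, and Sox6 neighbours of 40.0% and 36.7%.

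No gene named by the rule changed sign under the alternatives run. The same sign in both libraries was a condition of the rule, so the libraries taken alone are no further check. A single library leaves no residual degrees of freedom, so no count is given for it. Depth limits what an Anxa1 count of 1 and a Sox6 count of 0 can show.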
